A study of Homo sapiens with 6 samples.

Results

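Chemokines are small secreted proteins that steer migrating leukocytes, and the 10 genes described here encode 6 of them, CCL3, CCL5, CCL17, CCL19, CCL22 and CXCL10, and 4 chemokine receptors, CCR1, CCR2, CCR10 and CXCR4. Their symbols were matched to the Ensembl gene identifiers of the deposited tables, and all 10 were found among 61498 genes. The genes had been picked with their levels in these libraries in view, so their values are given below as a description and without a test. Their partners as ligand or receptor and the other genes of the pathway carry test results. Positions are those of GENCODE 29 on GRCh38.

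The values come from RNA sequencing of 3 human cell lines that were grown without treatment, with 2 libraries per line made from total RNA after removal of ribosomal RNA. RPMI-8226 is a multiple myeloma line, RPMI-8226-R was derived from it and resists bortezomib, an inhibitor of the proteasome, and NCI-BL2171 is the other line. The labels call the cells of all 3 lines B lymphocytes. They do not say if both libraries of a line trace to different cultures, or if RPMI-8226-R is a single clone. The p-values below therefore reflect variation among 6 libraries that may be technical, and RPMI-8226-R stands for 1 derived line.

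Each library held between 23952370 and 29052199 estimated reads. Plasma cell markers checked against the labels were present in both myeloma lines: 8 of 8 had a mean of at least 1 TPM (a transcript level scaled to library size and gene length) in RPMI-8226 and in RPMI-8226-R, with summed levels of 55202 to 57819 and of 33539.8 to 34604 TPM. In the libraries labelled NCI-BL2171, 2 of 7 B cell markers reached 1 TPM and their sum was 4.77 to 4.84 TPM, with no read of MS4A1, PAX5 or BLK. The same 2 libraries held 9 of 9 erythroid markers, which sum to 48345 to 50362 TPM. Of the 8 plasma cell markers, 2 reached 1 TPM there, XBP1 at 45.0 and 47.4 TPM and SDC1 at 2.43 and 2.83 TPM. The 8 summed to 47.9 to 50.7 TPM, with no read of TNFRSF17, IRF4, MZB1 and JCHAIN. The data thus go against the cell type given for that line, and it is called below by its label only.

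Chemokines bind receptors that cross the cell membrane and couple to inhibitory G proteins, and one receptor often answers to several ligands. In the bone marrow, where plasma cells and myeloma cells lodge, CXCL12 from the stroma retains cells that carry CXCR4. CCL3 is a known myeloma product that acts on osteoclast precursors through CCR1, CXCL10 is a classical interferon-induced attractant of T cells, and CCL17, CCL19 and CCL22 are best known from dendritic cells and activated B cells.

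RPMI-8226-R was first set against RPMI-8226, to see how the line that resists bortezomib differs in these genes from the line it came from. All 6 chemokines were lower in both RPMI-8226-R libraries than in either RPMI-8226 library. Folds here and below are on read counts unless said otherwise, so they need not equal the ratio of the TPM values beside them. CXCL10 was 145-fold lower and CCL22 1853-fold lower by the fit, while CCL3 and CCL19 went to no read at all. CCR1 and CCR2 were higher in RPMI-8226-R, CXCR4 was lower, and CCR10 overlapped between the lines. Of all 20081 genes tested, 65.6% were called different by edgeR, 45.4% had non-overlapping libraries with RPMI-8226-R lower and 35.2% with RPMI-8226-R higher; since these genes were picked on this contrast, nothing is read from their counts against those shares. Bulk RNA cannot tell fewer cells that express a gene from less RNA per cell.

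**Figure D1:**
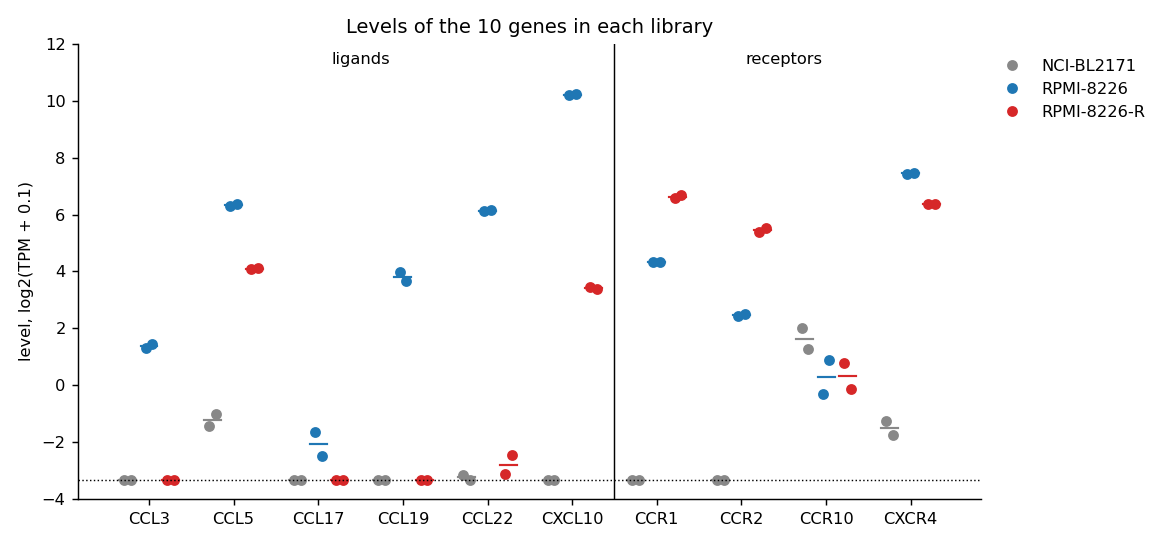
Level of each of the 10 genes in every library as log2(TPM + 0.1), with 1 point per library and a short line at the mean of the 2 libraries of a line; the dotted line marks a level of 0. All 6 ligands are highest in RPMI-8226, CCR1 and CCR2 are highest in RPMI-8226-R, and CCR10 overlaps between the 2 myeloma lines.

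CXCL10 (ENSG00000169245.6; chromosome 4, 76021117 to 76023497, minus strand) had the highest level of the 10 genes. It stood at 1175 and 1215 TPM in the RPMI-8226 libraries (34185 and 34070 reads), at 10.8 and 10.3 TPM in RPMI-8226-R (258 and 247 reads), and at no read in either library labelled NCI-BL2171. The 3 lines did not overlap. The fitted log2 difference of RPMI-8226-R from RPMI-8226, on a scale of reads per library size (CPM), was -7.17 ± 0.09 (SE, n = 2 per line). On log2(TPM + 1) it was -6.70.

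CCL22 (ENSG00000102962.5; chromosome 16, 57358772 to 57366190, plus strand), a ligand of CCR4, had 6292 and 6272 reads in RPMI-8226, or 69.3 and 70.8 TPM. RPMI-8226-R had 1 read and 6 reads, and the libraries labelled NCI-BL2171 had 1 read and none. The parent line was thus far above both others, which lay near 0. The fitted log2 difference from the parent was -10.86 ± 0.17 (SE, n = 2 per line), and it rested on those 7 reads. It was -10.15 without RPMI-8226-R replicate 1 and -12.49 without RPMI-8226-R replicate 2. The SE is far narrower than that range and understates the error of so few reads.

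CCL5 (ENSG00000271503.6; chromosome 17, 35871491 to 35880793, minus strand), a ligand of CCR1 and CCR3, was the one of the 6 ligands with the highest level in RPMI-8226-R. It measured 79.3 and 83.0 TPM in RPMI-8226 (2792 and 2830 reads), 16.8 and 17.3 TPM in RPMI-8226-R (480 and 499 reads), and 0.274 and 0.392 TPM in the libraries labelled NCI-BL2171 (5 and 6 reads). The lines did not overlap. RPMI-8226-R was 6.15-fold lower than its parent, a fitted log2 difference of -2.62 ± 0.09 (SE, n = 2 per line).

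CCL19 (ENSG00000172724.12; chromosome 9, 34689567 to 34691277, minus strand), a ligand of CCR7, had 264 and 213 reads in RPMI-8226, at 15.6 and 12.5 TPM, and no read in the other 4 libraries. Against the 3 reads per library that a count of 0 allows, the bound on its drop in RPMI-8226-R was at least 84.7-fold. CCL3 (ENSG00000277632.2; chromosome 17, 36088256 to 36090169, minus strand) showed the same pattern at a lower level, with 51 and 53 reads in RPMI-8226, or 2.4 and 2.6 TPM, and none elsewhere. Its drop in RPMI-8226-R was at least 18.5-fold. The bounds cover counting error only.

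CCL17 (ENSG00000102970.11; chromosome 16, 57404767 to 57416062, plus strand), the other ligand of CCR4, had 3 reads and 1 read in RPMI-8226 and none in the other libraries. It was the one member that did not pass the filter on low counts, and no fold is given because both myeloma lines were at or under the floor. Its non-overlap therefore rests on 4 reads.

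The sequences just upstream of the ligand start sites are shown for CXCL10 and its neighbour CXCL9, which were lower together, for CCL22 and CCL19, which were at or near 0 outside RPMI-8226, and for CCR1 as a receptor that was higher. A RefSeq start site (GRCh38.p14) was listed for 7 of the 10 genes, and not for CCL5, CCL17 and CCR10. The windows run 5′ to 3′ on the strand of the gene and end at the start site or where the GENCODE 29 gene begins. Capitals mark matches of 2 motifs, searched on both strands: the kappaB decamer, bound by NF-kB, and GAAANNGAAA, a core of sites bound by interferon regulatory factors.
CXCL10 (chr4:76023498-76023747, minus strand, 250 bases): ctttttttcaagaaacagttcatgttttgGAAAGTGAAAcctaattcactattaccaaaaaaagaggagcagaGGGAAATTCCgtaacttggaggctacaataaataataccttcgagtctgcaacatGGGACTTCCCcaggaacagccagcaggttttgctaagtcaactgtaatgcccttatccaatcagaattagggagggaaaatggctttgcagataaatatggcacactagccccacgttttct
CXCL9 (chr4:76007510-76007759, minus strand, 250 bases): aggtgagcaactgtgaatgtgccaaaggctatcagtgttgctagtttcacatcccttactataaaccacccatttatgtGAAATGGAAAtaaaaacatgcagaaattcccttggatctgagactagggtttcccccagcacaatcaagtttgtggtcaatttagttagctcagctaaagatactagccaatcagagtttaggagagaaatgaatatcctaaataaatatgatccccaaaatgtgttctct
CCL22 (chr16:57358533-57358771, plus strand, 239 bases): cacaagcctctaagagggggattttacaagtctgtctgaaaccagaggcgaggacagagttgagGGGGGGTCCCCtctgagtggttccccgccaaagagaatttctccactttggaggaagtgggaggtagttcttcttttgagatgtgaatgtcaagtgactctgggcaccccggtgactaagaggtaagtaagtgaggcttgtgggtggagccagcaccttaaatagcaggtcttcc
CCL19 (chr9:34691278-34691526, minus strand, 249 bases): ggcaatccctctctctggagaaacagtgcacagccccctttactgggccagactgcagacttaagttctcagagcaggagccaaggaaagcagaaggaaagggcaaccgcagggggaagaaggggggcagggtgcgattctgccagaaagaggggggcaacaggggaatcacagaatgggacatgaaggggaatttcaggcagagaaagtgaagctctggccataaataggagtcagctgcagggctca
CCR1 (chr3:46208397-46208563, minus strand, 167 bases): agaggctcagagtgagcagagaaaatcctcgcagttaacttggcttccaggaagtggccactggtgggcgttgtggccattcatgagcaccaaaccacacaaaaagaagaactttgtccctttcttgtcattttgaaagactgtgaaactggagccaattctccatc

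Counted back from the start site, the CXCL10 window had a kappaB match from base 177 and another from base 122, and a GAAANNGAAA match from base 221. CXCL9 had a GAAANNGAAA match from base 171 and no kappaB match. CCL22 had 2 overlapping kappaB matches from bases 186 and 185. The windows of CCL19 and CCR1 had neither motif, and nor did those of CCL3, CCR2, CXCR4, CXCL8 and CX3CR1, which are not shown. This says only that these letters are not in them. The kappaB decamer was not limited to genes that were lower: of the other family windows searched, those of CXCL6 and CCL1, which rose, held 2 overlapping matches each, and 1 window of CCR3 and that of CXCL11 held a match. Of 35116 windows of 250 bases upstream of RefSeq start sites, 9.96% held a kappaB match and 3.02% a GAAANNGAAA match, and a match is a run of letters, not a measured site.

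Among the receptors, CCR1 (ENSG00000163823.4; chromosome 3, 46201709 to 46208396, minus strand), which binds CCL3 and CCL5, had 20.2 TPM in each RPMI-8226 library (1614 and 1570 reads) and 94.7 and 104 TPM in RPMI-8226-R (6148 and 6780 reads). No read fell on it in the libraries labelled NCI-BL2171. RPMI-8226-R was thus above its parent in both libraries, by 3.79-fold and a fitted log2 difference of 1.92 ± 0.07 (SE, n = 2 per line). CCR1 lies within the span of CCR3 on the opposite strand, and the 2 genes share 0 exon bases.

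CCR2 (ENSG00000121807.7; chromosome 3, 46353734 to 46360928, plus strand), the receptor of CCL2 and CCL7, had 532 and 507 reads in RPMI-8226, or 5.36 and 5.62 TPM, against 2661 and 2965 reads in RPMI-8226-R, or 42.1 and 46.5 TPM. It too had no read in the libraries labelled NCI-BL2171. The lines did not overlap, and the fold was 5.06, a fitted log2 difference of 2.34 ± 0.09 (SE, n = 2 per line). The deposited transcript length of CCR2 was 3265 and 3061 bases in RPMI-8226 and 2583 and 2606 bases in RPMI-8226-R, and on log2(TPM + 1) the difference was 2.8. CCR1 and CCR3 are close paralogs, and CCR2 is a further relative; how shared reads were divided between them was not checked.

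CXCR4 (ENSG00000121966.8; chromosome 2, 136114349 to 136118165, minus strand), the receptor of CXCL12, was the most abundant receptor of RPMI-8226, at 173 and 178 TPM (8097 and 8089 reads). RPMI-8226-R had 83.5 and 81.8 TPM (3150 and 3090 reads), and the libraries labelled NCI-BL2171 had 0.315 and 0.195 TPM (13 and 7 reads). The order was the same in all libraries, with RPMI-8226-R between the others. It was 2.77-fold lower than the parent, a fitted log2 difference of -1.47 ± 0.07 (SE, n = 2 per line), or -1.08 on log2(TPM + 1).

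CCR10 (ENSG00000184451.5; chromosome 17, 42678889 to 42683917, minus strand), the receptor of CCL27 and CCL28, departed from the other receptors. It was highest in the libraries labelled NCI-BL2171, at 3.90 and 2.33 TPM, and its values in RPMI-8226 (0.713 and 1.75 TPM) and RPMI-8226-R (1.61 and 0.815 TPM) overlapped. The reads were 158 and 86, 41 and 76, and 58 and 38 in that order of lines. The fitted log2 difference between the myeloma lines was -0.38 ± 0.37 (SE, n = 2 per line), and its sign held in 11 of 14 alternative analyses. CCR10 shares 381 exon bases with CNTNAP1 on the opposite strand, which had 641 reads over all libraries, and the sources do not say whether counting used strand.

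CCR1 and CCR2 are also known from monocytes, so the monocyte and macrophage markers are given beside them. The 8 markers summed to 4.06 to 5.82 TPM in RPMI-8226 and to 2.95 to 4.32 TPM in RPMI-8226-R, and 2 of 8 reached 1 TPM in either line. ITGAM stood at 2.55 TPM on average in RPMI-8226 and at 1.46 TPM in RPMI-8226-R, and S100A9 at 1.65 and 2.03 TPM. FCN1 had no read in either line, and CD14 was at 0.097 TPM or less. Of the 8 plasma cell markers, 5 had a higher mean TPM in RPMI-8226-R (SDC1, TNFRSF17, XBP1, IRF4 and JCHAIN) and 3 a lower one, and the drop of their sum was that of IGLC2, from 53349 to 29566 TPM. What part these shifts had in the differences was not tested.

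**Figure D2:**
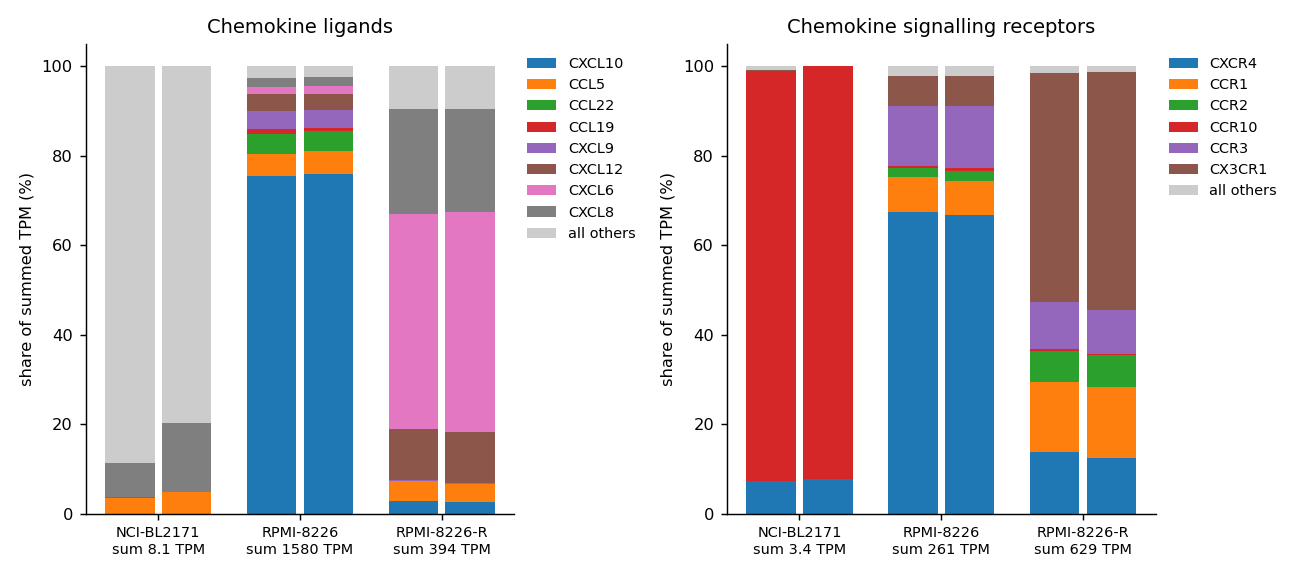
Share of the summed TPM of 46 chemokine genes (left) and 18 signalling receptor genes (right) taken by each named gene, with 1 bar per library and the mean sum of each line under it. CXCL10 fills 75.4% and 75.8% of the ligand bars of RPMI-8226, CXCL6 and CXCL8 lead in RPMI-8226-R, and CX3CR1 takes 51.3% and 53.1% of the receptor bars of RPMI-8226-R.

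The make-up of the whole family shows where the 10 genes stood in each line. Summed over 46 chemokine genes, RPMI-8226 held 1580.3 ± 30.6 TPM and RPMI-8226-R 394 ± 22.7 TPM (SD, n = 2). CXCL10 alone was 75.6% of that sum in RPMI-8226, followed by CCL5 at 5.13% and CCL22 at 4.43%. In RPMI-8226-R it was 2.68%, and CXCL6, at 48.7%, CXCL8, at 23.1%, and CXCL12, at 11.4%, came first. CCL5 kept a like share there, 4.34%.

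The receptor sum was higher in RPMI-8226-R, mostly through 1 gene, CX3CR1. The 18 signalling receptor genes summed to 261 ± 6.64 TPM in RPMI-8226 and to 629 ± 35.3 TPM in RPMI-8226-R (SD, n = 2). Without CX3CR1 the other 17 summed to 244 ± 6.06 and 301 ± 8.81 TPM (SD, n = 2). CXCR4 was 67.2% of the receptor sum in the parent and 13.2% in RPMI-8226-R. CCR1 went from 7.73% to 15.8% and CCR2 from 2.1% to 7.04%, and CX3CR1, the receptor of CX3CL1, made up 52.2% in RPMI-8226-R. Shares within a library are tied to each other, so one gene's share falls when another's level is higher.

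The other 60 genes of the chemokine and receptor family were read as a list. All but CCL3L1 were matched, and 24 passed the filter on low counts, against 20081 of all genes. In RPMI-8226-R against RPMI-8226, 7 of these 24 were higher and 13 lower by edgeR's quasi-likelihood test with Benjamini-Hochberg adjustment over all genes, and 4 did not pass. The median log2 difference was -0.54, against -0.12 over all genes tested, of which 28.5% were called higher and 37.2% lower. Of 14 tested ligands 4 rose and 9 fell. Of 10 tested receptors, the atypical ones included, 3 rose and 4 fell.

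**Figure D3:**
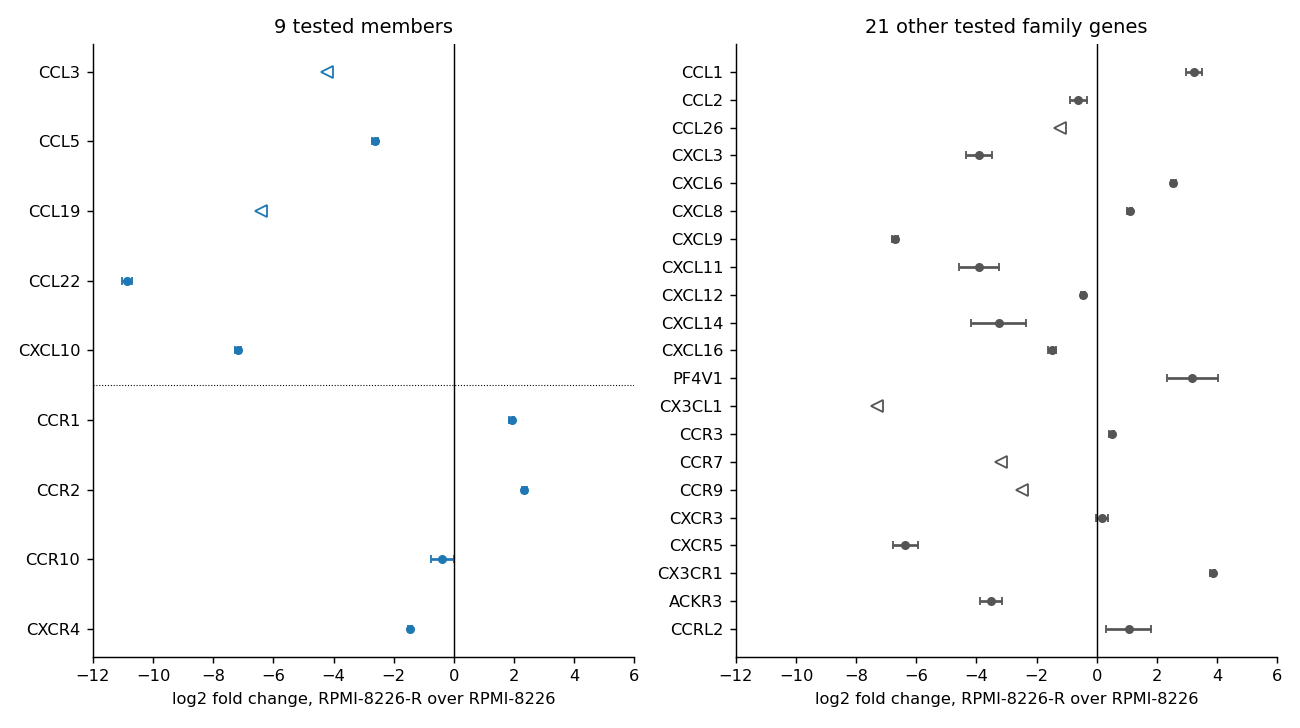
Fitted log2 fold change of RPMI-8226-R over RPMI-8226 with its SE for the 9 tested members (left, ligands above the dotted line and receptors below it) and for 21 other tested family genes (right, without CXCL2 and ACKR2, which were at or under the floor in both lines); open triangles are bounds for genes with no read in RPMI-8226-R, whose true difference is at least as large. The tested ligands among the members lie left of 0, CCR1 and CCR2 lie right of it, and the other family genes lie on both sides.

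The closest relatives of CXCL10 fell with it. CXCL9 and CXCL11 are the other ligands of CXCR3 and sit beside CXCL10 on chromosome 4. CXCL9 was at 62.5 and 64.5 TPM in RPMI-8226 and at 0.759 and 0.792 TPM in RPMI-8226-R, a 104-fold fall with a log2 difference of -6.71 ± 0.11 (edgeR adjusted p = 2.9e-20). CXCL11 was low in both lines and went from 0.832 and 0.917 TPM to 0.034 and 0.101 TPM (edgeR adjusted p = 2.3e-05), which is 1 read and 3 reads in RPMI-8226-R. The log2 difference of CXCL11 was -3.92, and -4.79 without RPMI-8226-R replicate 2. Their receptor CXCR3 had 3.29 and 3.33 TPM in the parent and 5.34 and 5.30 TPM in RPMI-8226-R, a difference that did not pass on counts (edgeR adjusted p = 0.42) and passed on log2(TPM + 1) (limma adjusted p = 0.00641).

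Partners of CCL22, CCL17 and CCL19 were near 0. CCR4, the receptor of the first 2, had 1 read in RPMI-8226 and 3 in RPMI-8226-R and was not tested. CCR7, the receptor of CCL19, was at 0.428 TPM on average in RPMI-8226 and had no read in RPMI-8226-R, a fall of at least 9.0-fold (edgeR adjusted p = 2.3e-05), and CCL21, its other ligand, had no read in any library. CX3CL1, the membrane-bound chemokine whose gene lies 13.7 kb from CCL22, had 429 and 459 reads in RPMI-8226 and none in RPMI-8226-R, a fall of at least 158-fold (edgeR adjusted p = 6.7e-14).

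CCR3, a receptor of CCL5, rose 1.40-fold on counts (edgeR adjusted p = 1.4e-05), and its levels went from 34.7 and 36.8 TPM to 63.9 and 64.8 TPM. CCL4 and its copy CCL4L2, neighbours of CCL3, had no read in any library, and CCL3L3, a near-identical copy of CCL3, was not tested at 0.140 TPM in RPMI-8226 and 0 in RPMI-8226-R. Reads of CCL3 and its copies may have been divided between them.

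CCR2, CXCR4 and CCR10 had ligands at very different levels. CCL2, the main ligand of CCR2, went from 5.18 and 4.56 TPM to 4.24 and 4.19 TPM and passed only narrowly as lower (edgeR adjusted p = 0.0483). That call was lost in 13 of 14 alternatives, where the adjusted p ran from 0.0509 to 0.649. CXCL12, the ligand of CXCR4, fell 1.37-fold, from 59.3 and 58.7 TPM to 43.2 and 46.4 TPM (edgeR adjusted p = 8.6e-06). ACKR3, an atypical receptor that takes up CXCL12, fell 11.5-fold to 0.265 TPM (edgeR adjusted p = 3.7e-08). CCL7, another ligand of CCR2, and CCL27 and CCL28, the ligands of CCR10, were at 0.169 TPM or less in every line and were not tested.

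Other family genes with large changes are not partners of the 10. CX3CR1 went from 17.1 and 18.0 TPM to 309.7 and 347 TPM, a 14.4-fold rise (edgeR adjusted p = 4.4e-20). CXCL6, an attractant of neutrophils, went from 25.6 TPM on average to 182 and 202 TPM (5.81-fold, edgeR adjusted p = 2.1e-16), and CXCL8, of the same group, rose 2.12-fold (edgeR adjusted p = 9.7e-10). CCL1, the ligand of CCR8, rose 9.39-fold to 22.5 TPM (edgeR adjusted p = 1.0e-09). PF4V1, a relative of platelet factor 4, had 3 reads in all in RPMI-8226 and 31 in RPMI-8226-R, a count ratio of 9.66 with an exact 95% interval of 3.01 to 49.4 (edgeR adjusted p = 0.00275).

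Against these, CXCR5, the B cell follicle homing receptor, fell from 1.48 to 0.0225 TPM on average (edgeR adjusted p = 8.8e-11), and CXCL3 fell 15.1-fold (edgeR adjusted p = 6.2e-08). The log2 difference of CXCR5 was -6.36, and it was -7.62 without RPMI-8226-R replicate 1 and -5.66 without RPMI-8226-R replicate 2, which had 4 reads and 1 read. CCL26, an attractant of eosinophils, had 3 and 10 reads in RPMI-8226 and none in RPMI-8226-R, a fall of at least 2.36-fold (edgeR adjusted p = 0.00374). Without RPMI-8226 replicate 2 its adjusted p was 0.0636, and on log2(TPM + 1) it was 0.094 by limma.

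CCR1 and CCR2 belong to a run of receptor genes on chromosome 3. The 3 receptor genes CCR3, CCR1 and CCR2, whose start sites lie at -44.79, 0 and 145.3 kb from that of CCR1, were all higher in RPMI-8226-R, by fitted log2 differences of 0.49, 1.92 and 2.34. LINC02009, a long non-coding RNA gene 215.2 kb from CCR1 that was chosen after its values were seen, went from 74.1 ± 2.42 to 274 ± 25.5 TPM (SD, n = 2; edgeR adjusted p = 7.2e-14). Beyond them the genes differed in direction. FYCO1, at -212.6 kb, rose 1.91-fold (edgeR adjusted p = 2.8e-07) and LZTFL1, at -292.4 kb, fell 1.52-fold on counts (edgeR adjusted p = 1.9e-05). CCR9, at -321.9 kb, had no read in RPMI-8226-R. On the other side, CCRL2 and LTF did not pass (edgeR adjusted p = 0.215 and 0.16), and ALS2CL, at 485.3 kb, fell 61.0-fold (edgeR adjusted p = 2.6e-15).

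**Figure D4:**
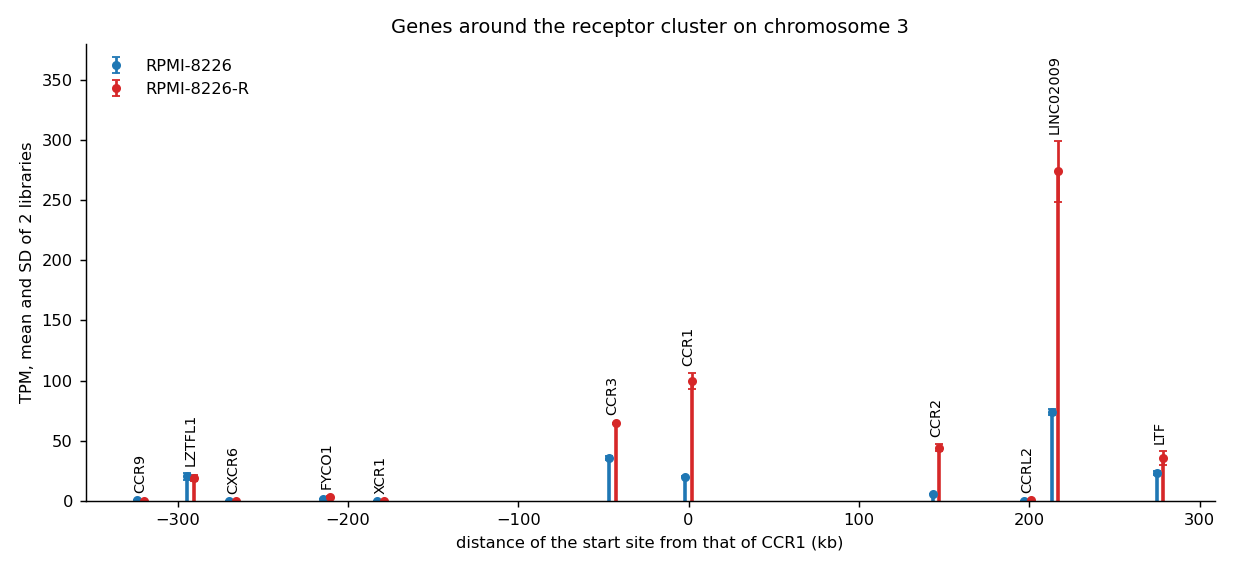
Mean TPM and SD of the 2 libraries of RPMI-8226 and of RPMI-8226-R for genes near CCR1, against the distance of their start site from that of CCR1 in kb. CCR3, CCR1, CCR2 and LINC02009 stand higher in RPMI-8226-R, and CCR9 does not.

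The loci of CXCL10 and CCL22 were mixed in the same way. On chromosome 4, CXCL9, CXCL10 and CXCL11 were all lower in RPMI-8226-R, while SDAD1, at -32.53 kb from CXCL10, rose 3.61-fold (edgeR adjusted p = 4.9e-11) and NUP54, at 125 kb, rose 2.02-fold (edgeR adjusted p = 1.5e-08). On chromosome 16, CCL22 and CX3CL1 were lower, and CCL17 had 4 reads in all in RPMI-8226 and none in RPMI-8226-R. ARL2BP before them rose 1.38-fold (edgeR adjusted p = 8.4e-06) and COQ9 after them did not pass (edgeR adjusted p = 0.0947). DOK4, 128.6 kb from CCL22, fell 36.1-fold (edgeR adjusted p = 1.5e-15). On chromosome 17, CCL5 and CCL3 were lower, and RDM1, 49.98 kb from CCL5, fell with them, 14.3-fold (edgeR adjusted p = 7.6e-08). These neighbours were named for their place beside the clusters, after their values had been seen.

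For each member with at least 1 TPM in some line, the 3 genes with the most similar pattern over the 6 libraries were found among 15633 genes, by the root mean square difference of log2 CPM centred on each gene's mean. CXCL10 was nearest to HLA-DRA, at a difference of 0.24. HLA-DRA, a chain of the class II antigen-presenting complex, stood at 1219 ± 45 TPM in RPMI-8226 and at 13.8 ± 0.307 TPM in RPMI-8226-R (SD, n = 2). CD74, the chaperone of that complex, and HLA-DRB1 came next, at differences of 0.71 and 0.81. CCL22 was nearest to HLA-DOA and HLA-DQA2, at 0.43 and 0.55, and then to OLFML2A, at 0.63, which is no class II gene. HLA-DQA2 shares reads with a near-identical copy, so its own values are uncertain.

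CCL19 was nearest to SFRP2, MS4A1 and SSTR2, and CCL3 to LANCL1-AS1, PRODH and RMRP, all with no read or almost none outside RPMI-8226. CCL5 was nearest to LEFTY2, PTGER4 and TMEM210. CCR1 was nearest to GPRIN3, HAVCR2 and EMB, at 0.17 to 0.33, and CCR2 to CBR3, ASXL3 and MGLL, at 0.12 to 0.24, so no gene was shared between these 2 neighbours on the chromosome. HAVCR2, an inhibitory immune receptor, went from 26.1 ± 1.93 to 101 ± 7.08 TPM (SD, n = 2), close to the values of CCR1. CXCR4 was nearest to GRIA4, ABCG1 and IGLC7, and CCR10 to SUMO2P20, SOX18 and ZNF391.

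Downstream of the receptors, a list of 48 genes of signal transduction and receptor shut-off was read in the same way. Of 45 that passed the filter, 9 were higher and 26 lower in RPMI-8226-R, with a median log2 difference of -0.39 against -0.12 over all genes (edgeR, adjusted over all genes). Of all genes, 28.5% were called higher and 37.2% lower. On log2(TPM + 1), the median over all genes lay 0.2 higher. There the split was 13 higher and 17 lower by limma, with 35.0% of all genes higher and 22.7% lower. The list median was -0.14 on that scale, against 0.08 over all genes. The counts thus changed with the scale, while the list median lay below that of all genes on both. The largest falls in signal transduction were those of FERMT3, which activates integrins, from 22.2 and 23.5 to 0.632 and 1.18 TPM (edgeR adjusted p = 6.1e-16), and of RASGRP2, which activates RAP1, from 14.2 and 14.7 to 0.447 and 1.41 TPM (edgeR adjusted p = 5.8e-12). RASGRP2 fell by 4.36 on the log2 scale, and by 5.30 without RPMI-8226-R replicate 2. GNG7, a G protein gamma subunit, fell 12.6-fold (edgeR adjusted p = 2.2e-13).

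Other parts of the same machinery rose. CORO1A, an actin-binding protein of leukocytes, went from 172 and 166 to 516 and 527 TPM, 2.13-fold on counts (edgeR adjusted p = 2.4e-11). PIK3CG, the PI3-kinase catalytic subunit that G protein subunits activate, rose 1.57-fold (edgeR adjusted p = 6.4e-07), and DOCK2, which activates RAC, rose 1.47-fold (edgeR adjusted p = 1.5e-05). Within the signal transduction genes alone, 4 of 26 tested rose and 15 fell on counts, against 7 and 10 on log2(TPM + 1). The shares over all genes were 28.5% higher and 37.2% lower on counts, and 35.0% and 22.7% on log2(TPM + 1).

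Of 19 tested genes that switch the receptors off or modify their ligands, 5 rose and 11 fell on counts, against 6 and 7 on log2(TPM + 1), and 3 rose with the effective-length offset or without RPMI-8226 replicate 1. Of all genes, 28.5% were called higher and 37.2% lower on counts, and 35.0% and 22.7% on log2(TPM + 1). The regulators of G protein signalling RGS1 and RGS2 fell most. RGS1 went from 34.1 and 33.8 to 0.687 and 1.09 TPM, 48.5-fold lower (edgeR adjusted p = 2.0e-16), and RGS2 from 54.0 and 60.2 to 0.885 and 1.08 TPM, 71.0-fold lower (edgeR adjusted p = 1.4e-18). DPP4, a membrane protease that trims CXCL10, CXCL12 and CCL22, fell 4.52-fold (edgeR adjusted p = 2.8e-11). USP8, which removes ubiquitin from receptors on endosomes, rose 1.58-fold (edgeR adjusted p = 7.3e-07). ARRB1, an arrestin, rose 1.63-fold (edgeR adjusted p = 0.0103), and its adjusted p was 0.0539 without RPMI-8226 replicate 1 and 0.128 without RPMI-8226-R replicate 1. GRK3, a receptor kinase, was 1.42-fold higher on counts (edgeR adjusted p = 0.0105) and lost that call with an offset for effective length (edgeR adjusted p = 0.808), on log2(TPM + 1) (limma adjusted p = 0.31) and without RPMI-8226 replicate 1 (adjusted p = 0.0595) or RPMI-8226-R replicate 2 (adjusted p = 0.0545).

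**Figure D5:**
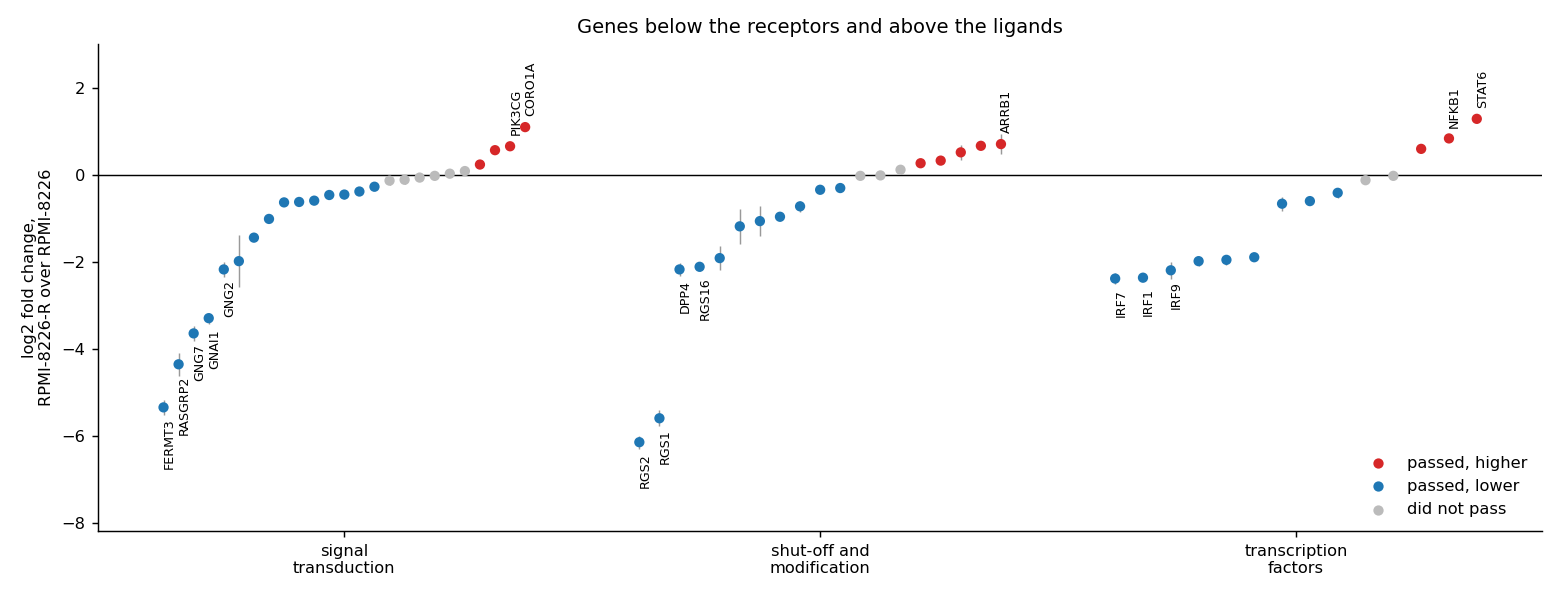
Fitted log2 fold change of RPMI-8226-R over RPMI-8226 with its SE for tested genes of signal transduction, of receptor shut-off and ligand modification, and of the transcription factor list, coloured by edgeR's adjusted p at 0.05. Falls outnumber rises on this scale in each of the 3 groups, and RGS2, RGS1 and FERMT3 lie lowest.

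Upstream of the ligands, 15 transcription factors known to act on chemokine genes were all tested, and 3 rose and 10 fell in RPMI-8226-R by edgeR, with a median log2 difference of -0.67 against -0.12 over all genes, of which 28.5% were called higher and 37.2% lower. On log2(TPM + 1) 5 rose and 8 fell by limma, where 35.0% of all genes were called higher and 22.7% lower. IRF1, an interferon-induced factor, fell 5.16-fold on counts (edgeR adjusted p = 2.3e-17), and its levels went from 734 and 711 to 190.3 and 201 TPM. IRF7 fell 5.26-fold (edgeR adjusted p = 1.7e-13) and IRF9, a part of the complex that interferon activates, 4.61-fold (edgeR adjusted p = 5.8e-09). STAT6, the factor activated by interleukin signals of the IL4 type, rose 2.43-fold (edgeR adjusted p = 4.9e-11). IRF4, a plasma cell factor, rose 1.5-fold (edgeR adjusted p = 1.0e-07). The 5 NF-kB subunits did not move together. NFKB1 rose 1.78-fold (edgeR adjusted p = 1.0e-07), while NFKB2 fell 3.73-fold (edgeR adjusted p = 3.4e-15), RELB 3.88-fold (edgeR adjusted p = 9.1e-13) and REL 1.6-fold (edgeR adjusted p = 0.00132). RELA did not pass (edgeR adjusted p = 0.693), at a log2 difference of -0.03 on counts and 0.45 on log2(TPM + 1). The last 4 were named after their values had been seen.

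Both myeloma lines were also compared with the libraries labelled NCI-BL2171, which serve both comparisons. In RPMI-8226, 9 of the 10 genes were higher than in those libraries without overlap and CCR10 was lower. Of the 9, CCL17 rests on 4 reads. In RPMI-8226-R, CCR1, CCR2, CXCR4, CCL5 and CXCL10 were higher, CCR10 was lower, CCL3, CCL17 and CCL19 had no read in either line, and CCL22, with 1 and 6 reads against 1 and 0, was barely apart, at a count ratio of 6.53 with an exact 95% interval of 0.839 to 294. Of all genes, 46.7% were non-overlapping and higher and 41.6% lower in RPMI-8226, and 44.1% and 43.2% in RPMI-8226-R, and edgeR called 76.7% and 77.4% different in either direction. The 10 genes were picked with their levels in view, so nothing is read from their counts against these shares either. The erythroid markers move with this contrast, from 60.5 to 63.5 TPM in RPMI-8226 and 171 to 187 TPM in RPMI-8226-R to the sums given above, and their part in the differences was not tested.

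CXCL10 was at least 11340-fold higher in RPMI-8226 than in the libraries labelled NCI-BL2171 and at least 78.5-fold higher in RPMI-8226-R. CCR1 was at least 529-fold higher in the parent and at least 2005-fold higher in RPMI-8226-R, and CCR2 at least 172-fold and at least 872-fold. CXCR4 was 799-fold higher in RPMI-8226 and 288-fold higher in RPMI-8226-R by the fit, on 20 reads in the libraries labelled NCI-BL2171. CCR10 made up 91.9% of the receptor sum of those libraries, a sum of 3.39 ± 1.23 TPM (SD, n = 2), and was 2.06-fold lower in RPMI-8226 and 2.69-fold lower in RPMI-8226-R.

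Among the tested genes of the rest of the family, most were higher in the myeloma lines. The filter kept any gene with enough reads in some line. A gene with no read in the libraries labelled NCI-BL2171, such as CXCL6, CXCL9, CXCL12 or CCR3, could thus be called only as higher. No conclusion on the whole family is drawn from the counts below. Of the 24 tested family genes, 17 were higher and 3 lower in RPMI-8226, and 14 higher and 6 lower in RPMI-8226-R, by edgeR with adjustment over all genes, where 41.1% and 39.2% of all genes were called higher and 35.6% and 38.2% lower. CXCL12 was at least 1131-fold higher in RPMI-8226 and at least 824-fold higher in RPMI-8226-R. CCR3 was at least 569-fold and at least 799-fold higher. The 3 genes lower in RPMI-8226 were CXCL2, a neutrophil attractant, ACKR2, a receptor that scavenges CC chemokines, and CCRL2, an atypical receptor. These 3 were also lower in RPMI-8226-R, along with CCL26, CXCL3 and CXCL11. CXCL2, ACKR2 and CCRL2 were named after their values had been seen. CXCL11, the relative of CXCL10, had 1.88 TPM on average in the libraries labelled NCI-BL2171, above its 0.875 TPM in RPMI-8226, a difference that did not pass (edgeR adjusted p = 0.188).

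Of the 45 tested genes of signalling and shut-off, 28 were higher and 12 lower in RPMI-8226 than in the libraries labelled NCI-BL2171, and 25 higher and 16 lower in RPMI-8226-R, by edgeR. GNG2, a G protein gamma subunit, had no read in the libraries labelled NCI-BL2171 and stood at 5.43 and 5.11 TPM in RPMI-8226 and at 1.39 and 2.21 TPM in RPMI-8226-R. GNAQ, the alpha subunit that couples to phospholipase C, ran the other way, from 5.27 and 4.76 TPM in the libraries labelled NCI-BL2171 to 0.018 TPM or less in the myeloma libraries (edgeR adjusted p = 3.2e-17 and 2.3e-17). RGS2 was 7.1-fold higher in RPMI-8226 (edgeR adjusted p = 5.0e-16) and 9.99-fold lower in RPMI-8226-R (edgeR adjusted p = 1.2e-13) than in the libraries labelled NCI-BL2171. Of the 15 transcription factors, 14 were higher and 1, STAT3, lower in RPMI-8226, and 10 were higher and 3 lower in RPMI-8226-R. Of all genes, 41.1% were called higher and 35.6% lower in RPMI-8226, and 39.2% and 38.2% in RPMI-8226-R. IRF4 had no read in the libraries labelled NCI-BL2171 and was at least 1515-fold higher in RPMI-8226 and at least 2280-fold higher in RPMI-8226-R.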

How the data were processed

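The 10 genes reported on (the members) and every gene list were chosen with earlier results of these data known. Each library's deposited table gave, per gene, an estimated count (expected count), a TPM value, a length and an effective length, per the file headers; reads had been placed on GRCh38.p13, per the submitters' processing notes, while the sources used here name no quantifier, annotation or strand setting. Of 61544 genes per table, 46 copies in the pseudoautosomal part of Y were added to their X partners, which left 61498. Estimated counts were rounded and fitted with edgeR 4.0.16 in R 4.3.3 (TMM, robust quasi-likelihood F test, all 6 libraries, 3 residual degrees of freedom) after a filter at 10 reads per library and 15 in total, and p-values were adjusted by Benjamini-Hochberg over 20081 genes at 0.05. Fold changes are on the count scale unless said otherwise. Each SE of a fitted log2 difference was derived from the test, as the size of the difference over the square root of F. It understates the error for genes with few reads in a line, such as CCL22 and CXCL9. A line with no read was set at a floor of 3 counts per library, and a line with 1 to 3 reads in all gives a count ratio with an exact 95% interval; both cover counting error only.

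Alternatives were DESeq2 1.42.0, its size factors, no filter, limma 3.58.1 on log2(TPM + 1) and log2(TPM + 0.1), an effective-length offset, only the 2 lines compared, the replicate number as a block, and each library left out. Of the deposited lengths, the effective length entered the offset, and the transcript length is printed for CCR2. Genes named beside the members are their partners, the 3 largest changes each way per list that passed with at least 1 TPM, the largest in each other comparison, and the 3 nearest in pattern (prior count 2; genes on Y, XIST and antigen-receptor variable segments left out). Gene positions are from GENCODE 29, promoter windows from RefSeq. The fit was also run on simulated counts with the same spread for all genes and few changed genes, unlike these data, so nothing is concluded from it. Of the listed genes, 2 are counted in their lists and not reported here by name or shown in the plots.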

Additional observations from a re-analysis of the deposited data

How the results depend on the processing

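Counts of called genes in the whole family and in the joint list of signalling and shut-off stayed within 1.5 times the main count under all 14 alternatives except on the TPM scales. The signalling and shut-off genes lower in RPMI-8226-R than in RPMI-8226 numbered 17 on log2(TPM + 1) and 16 on log2(TPM + 0.1), against 26 on counts, and the family genes lower in RPMI-8226 than in the libraries labelled NCI-BL2171 numbered 5 on log2(TPM + 1), against 3. In RPMI-8226-R against RPMI-8226, the smaller lists moved further. Signal transduction genes higher numbered 7 on both TPM scales, against 4, and transcription factors higher 5, against 3. Shut-off genes lower numbered 7 on log2(TPM + 1) and 6 on log2(TPM + 0.1), against 11, and shut-off genes higher numbered 3 with the effective-length offset and 3 without RPMI-8226 replicate 1, against 5. On the TPM scales the median over all genes lay 0.2 and 0.24 higher in RPMI-8226-R against RPMI-8226.

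Leaving out each library in turn gave, for the family in RPMI-8226-R against RPMI-8226, 7 to 7 genes higher and 11 to 13 lower. Against the libraries labelled NCI-BL2171 it gave 17 to 17 higher and 3 to 3 lower in RPMI-8226, and 13 to 15 and 5 to 6 in RPMI-8226-R. For signalling and shut-off it gave 7 to 9 higher and 23 to 26 lower in RPMI-8226-R against RPMI-8226, 27 to 28 and 12 to 13 in RPMI-8226 against NCI-BL2171, and 25 to 25 and 16 to 18 in RPMI-8226-R against NCI-BL2171. A line left with 1 library is assumed to vary like the others, but the spread between replicate libraries differed by line. Measured as a chi-square per gene, it was largest in RPMI-8226-R, at 11. Its parent had 3.45, and the libraries labelled NCI-BL2171 had 5.46. The main fit on all 6 libraries also shares its estimate of spread among the lines. The SE and p-values may therefore understate the error in RPMI-8226-R.

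The labels give the lines the same replicate numbers and do not say that a number marks a shared day or batch. For NCI-BL2171 the deposited data carry the 2 numbers in the opposite order from the sample titles, and the titles were used. The correlations and the block below rest on that choice. Deviations from the line means of same-numbered libraries correlated at 0.0777, 0.12 and 0.0752 over 9936 genes, and with 2 numbers they do not show a pairing. With the number as a replicate block the family gave 7 higher and 12 lower in RPMI-8226-R against RPMI-8226, against 7 and 13 without it, and signalling and shut-off gave 9 and 26 in both fits. With 2 libraries per line, depth sets the bounds of CCL3 and CCL19 and leaves CCL17 without a fold, and the fold of CCL22 rests on single reads.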
